A study of Mus musculus with 20 samples.

Results

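Respiratory complex I, the NADH:ubiquinone oxidoreductase of the inner mitochondrial membrane, is built from subunits encoded in the nucleus and subunits encoded in mitochondrial DNA. The genes described here are the nuclear protein-coding genes whose symbol starts with Nduf, which are 45 of the 39174 genes listed for each library (22736 of them protein coding). They comprise 38 subunit genes (Ndufa, Ndufb, Ndufc, Ndufs and Ndufv) and 7 assembly factor genes (Ndufaf), and all 45 were found by identifier on the same chromosome in the GENCODE M21 annotation of the mouse genome build GRCm38. RNA was sequenced from primary motoneurons of CD-1 mouse embryos, enriched from spinal cord with an antibody against the neurotrophin receptor p75 and grown in microfluidic chambers that separate axons from cell bodies and dendrites. Control cultures were transduced with an empty lentiviral vector and Tdp-43 knockdown cultures with a lentivirus expressing a short hairpin RNA against Tdp-43, the RNA-binding protein encoded by Tardbp. The axonal and the somatodendritic compartment were each represented by 4 control and 6 knockdown libraries, 20 in all, and every culture carried a lentiviral vector. The comparisons address which of these transcripts had a different share of the RNA in axons than in cell bodies, and whether either share differed after Tdp-43 knockdown.

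Complex I oxidises NADH, passes the electrons through a flavin and a chain of iron-sulphur clusters to ubiquinone, and pumps protons across the membrane. Its core subunits are shared with bacteria, and the remaining accessory subunits stabilise the enzyme and its assembly intermediates. The N module holds the NADH-oxidising site, the Q module the quinone-reducing site, and the membrane arm is assembled from modules named after the mitochondrially encoded ND subunits. Assembly factors are needed to build the enzyme and are not part of it. Neurons depend heavily on oxidative phosphorylation, and messenger RNAs of nuclear-encoded mitochondrial proteins are among the transcripts known from axons.

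Levels are given in FPKM, a count of fragments divided by transcript length and by the size of the library, so that genes can be compared with each other. Depth differed widely. An effective number of fragments was computed for each FPKM from the confidence interval given with it. This number is not a count of reads, as Ndufa3 had 14.7 FPKM and 0.33 effective fragments in axonal control replicate 2. The depth of a library relative to the deepest, taken from these numbers, ranged from 0.103 to 1. It was under 0.5 in 5 libraries, namely axonal knockdown replicates 2, 4 and 5 and somatodendritic knockdown replicates 5 and 6. All 45 genes together had 38.5 to 858 effective fragments per library, and the median gene had 0.25 to 11.9. Tardbp was at 19.0 to 30.8 FPKM in somatodendritic controls and 0 to 8.54 in somatodendritic knockdown, and at 13.4 to 32.3 in axonal controls and 1.21 to 33.2 in axonal knockdown. The value of 33.2 was that of the library labelled axonal knockdown replicate 1, which did not show the depletion. Of 8 motoneuron markers looked up, 7 were matched by symbol, of which Mnx1, Chat and Isl2 were listed at 0 in all 20 libraries, and the summed level of the 7 was between 0 and 8.9 FPKM per library. The 6 astrocyte and radial glia markers summed to 23.8 to 540 FPKM. Defining markers of the labelled cell type were thus listed at 0 or low, and whether this reflects depth, coverage of the transcripts or the cells in the cultures was not tested. In bulk RNA, fewer cells of a type and less RNA per cell cannot be told apart. The labels do not say whether replicates came from separate cultures, so p-values measure the spread between libraries, which may be technical.

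Promoters are shown for 3 of the genes described below, because 2 well-known activators of respiratory chain genes, NRF-1 and the ETS factor GABP, bind short motifs that can be looked for in them. RefSeq (GRCm38.p6) held a promoter for 39 of the 45 genes, with no entry for Ndufa2, Ndufa4l2 and Ndufaf6 among others. The NRF-1 motif GCGCANGCG was present on either strand within the 250 bases before a start in 7 of the 39 genes (17.9%), which were Ndufa5, Ndufa8, Ndufa11, Ndufb4, Ndufs5, Ndufs6 and Ndufaf4, and in 5.86% of the 27025 genes with a promoter. The ETS motif CCGGAAG was present in 4 of the 39 genes (10.3%), which were Ndufb6, Ndufb7, Ndufs3 and Ndufaf1, and in 7.83% of all genes with a promoter. The 2 motifs were searched separately, and neither contains the other. The stretches around the matches are given in the direction of transcription, with the match in capitals. All 3 genes lie on the minus strand, at chr6:24527698-24527726 for Ndufa5, chr2:36049339-36049367 for Ndufa8 and chr2:119662835-119662863 for Ndufaf1.
Ndufa5: tgtgtgagctGCGCAGGCGcaaatctacc
Ndufa8: CGCTTGCGCgtcgctggagaCGCATGCGC
Ndufaf1: cgggaccacaaCCGGAAGcgtggcgaacc
Ndufa8 held 2 matches, the second of which ended directly before the RefSeq start. The match of Ndufa5 ended 17 bases and that of Ndufaf1 11 bases before it. By GENCODE M21 the outermost start of Ndufa5 and of Ndufa8 lies further upstream, so that the stretches of these 2 genes fall inside the annotated gene there. A match is a description of the letters and not evidence of binding.

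Of the 38 subunit genes 37 were detected, and the same gene led their order of levels in both compartments. Over the 10 somatodendritic libraries, mean levels of these 37 ran from 9.10 FPKM for Ndufab1, the mitochondrial acyl carrier protein, to 366 FPKM for Ndufv3, an accessory subunit of the NADH-oxidising N module, with a median of 30 FPKM. Over the 10 axonal libraries they ran from 6.60 FPKM for Ndufb3, an accessory subunit of the membrane arm, to 254 FPKM for Ndufv3, with a median of 25.2 FPKM. Ndufv3 (chr17:31520115-31531331) and Ndufa4, named as a complex I subunit and now regarded as a subunit of cytochrome c oxidase, made up 23.3% to 43.8% of the summed subunit FPKM of a library. Ndufa4l2, a relative of Ndufa4 that is induced under low oxygen, was listed at 0 in all 20 libraries. It did not pass the filter on low values, and the other 44 genes were tested in each comparison.

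Median levels of the 7 assembly factors were 8.26 FPKM in the somatodendritic and 3.30 FPKM in the axonal compartment, below the subunit medians. Their means ran from 2.66 FPKM for Ndufaf7, an arginine methyltransferase of the mitochondrial matrix, to 39.8 FPKM for Ndufaf2, a chaperone of late assembly, in the somatodendritic compartment. In axons they ran from 1.41 FPKM for Ndufaf1, an early membrane arm assembly factor, to 17.9 FPKM for Ndufaf2. The level of Ndufaf2 (chr13:108002715-108158623) is uncertain, because 65.6% of its exonic bases are also covered by B230220B15Rik, a long noncoding RNA on the opposite strand, and whether strand was used in counting is not given in the sources used here. Ndufab1 was listed at 0 in somatodendritic knockdown replicate 6 and axonal knockdown replicate 5, with somatodendritic control values of 19.8, 6.82, 6.40 and 13.6 FPKM and axonal control values of 9.32, 4.68, 10.7 and 16.8 FPKM. Its knockdown libraries spanned 0 to 16.2 FPKM with a median of 5.59 in the somatodendritic and 0 to 27.8 FPKM with a median of 4.02 in the axonal compartment, so the groups overlapped in both. Ndufaf1 had somatodendritic control values of 6.38, 0, 8.05 and 2.80 FPKM and axonal control values of 0, 1.93, 1.57 and 4.20 FPKM. It was listed at 0 in 9 of the 20 libraries, and its knockdown medians were 1.01 FPKM (0 to 7.35) in the somatodendritic and 0 FPKM (0 to 3.39) in the axonal compartment. Ndufaf7 had 2.42, 2.95, 2.41 and 1.59 FPKM in somatodendritic and 2.0, 2.19, 4.46 and 2.27 FPKM in axonal controls, with knockdown medians of 2.32 (0 to 6.20) and 1.80 (0 to 8.70). Only 16 of the 45 genes, 15 subunits and the assembly factor Ndufaf4, were above 0 in all 20 libraries.

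**Figure D1:**
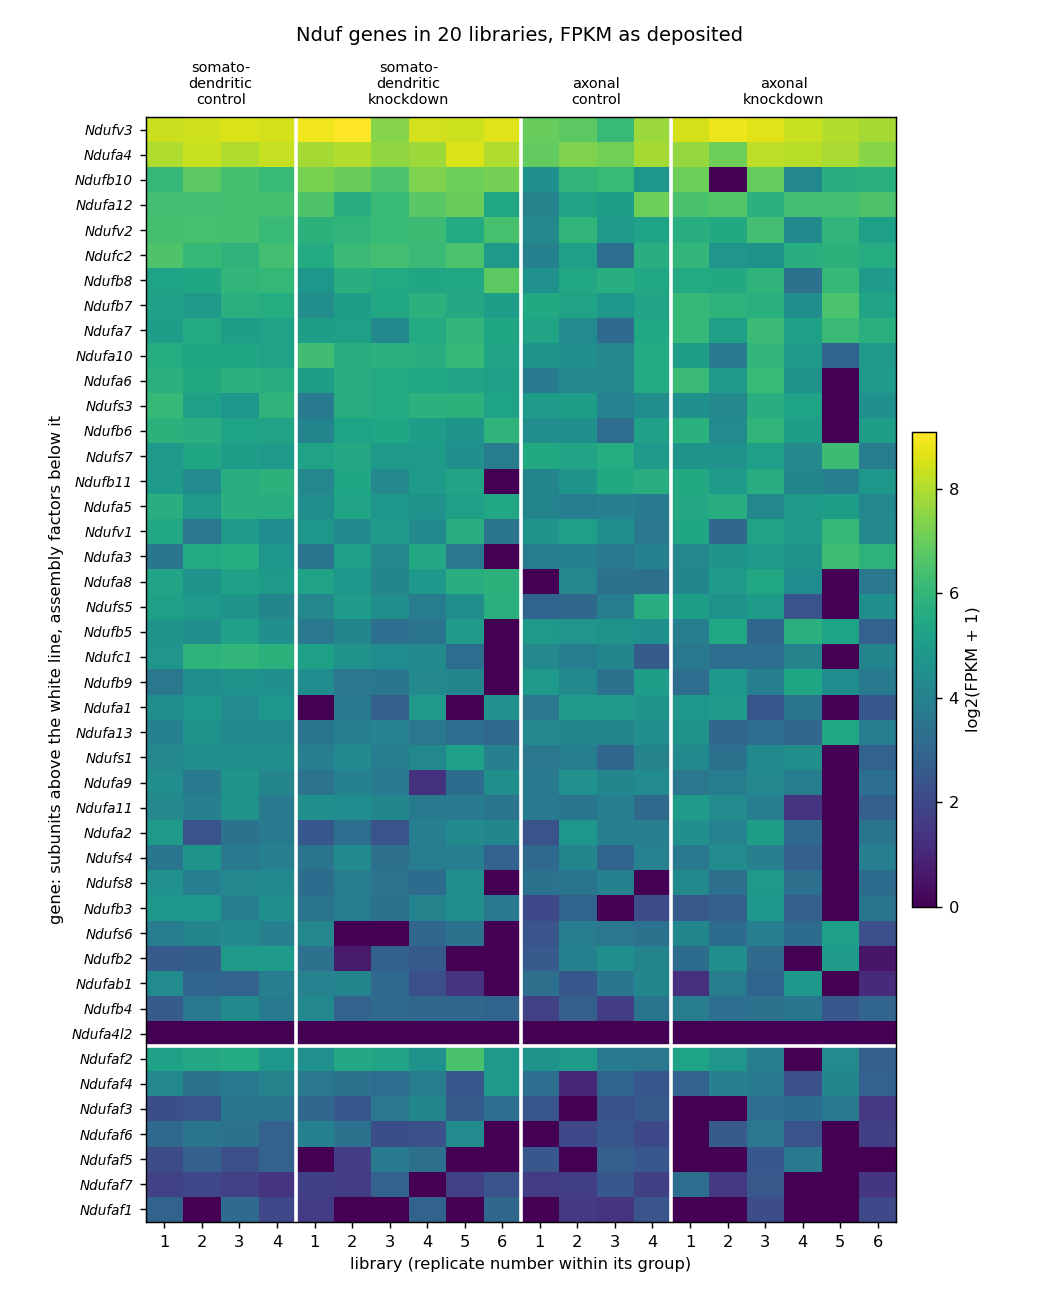
Heat map of log2(FPKM + 1) as deposited for 44 of the 45 Nduf genes (rows, sorted by mean level within subunits and assembly factors) in the 20 libraries (columns, by group and replicate number). Ndufv3 and Ndufa4 form the bright top rows, Ndufa4l2 is at 0 throughout, and the values at 0 gather in axonal knockdown replicate 5 and somatodendritic knockdown replicate 6, in which 25 and 33 of the 45 genes were above 0.

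The summed level of the subunit genes was lower in axons than in cell bodies in control cultures. It was 1814, 1871, 1912 and 1902 FPKM in the somatodendritic and 853, 1077, 915 and 1383 FPKM in the axonal controls, so the groups did not overlap, and the axonal mean of 1057 FPKM was 56.4% of the somatodendritic mean of 1875 FPKM. In knockdown cultures the sums were 1298 to 1918 FPKM (median 1696) in the somatodendritic and 1196 to 1925 FPKM (median 1456) in the axonal compartment, with an axonal mean of 90.2% of the somatodendritic mean and overlapping groups. FPKM depends on the rest of a library, and mitochondrially encoded RNA summed to 49379 to 367392 FPKM, with 233998 FPKM in axonal control replicate 4, 264260 to 367392 FPKM in axonal knockdown replicates 2, 4, 5 and 6, and at most 90896 FPKM in the others. The sums were therefore also taken per 1000000 FPKM of nuclear protein-coding genes. Expressed this way the subunits reached 7993 to 8321 in somatodendritic and 4866 to 7928 in axonal controls, a ratio of 75.0% without overlap. Leaving out Ndufv3 and Ndufa4, the control groups overlapped, at 5254 to 5548 and 3499 to 5430, a ratio of 82.4%. Somatodendritic knockdown libraries reached 5018 to 7105, which was 77.3% of their controls, again without overlap, and 73.1% without Ndufv3 and Ndufa4. As deposited the knockdown mean was 90.0% of control with overlapping groups, and 85.1% without these 2 genes, where the groups did not overlap. Axonal knockdown libraries reached 5585 to 6942, which was 103% of their controls on this scale and 144% of them as deposited, with overlapping groups on both scales. Without Ndufv3 and Ndufa4 these ratios were 89.2% and 125%, also with overlap. The assembly factors summed to 70.0 to 93.2 FPKM in somatodendritic and 34.8 to 43.7 FPKM in axonal controls, a ratio of 49.2%. In knockdown they summed to 61.5 to 120 FPKM and 20.9 to 58.2 FPKM, a ratio of 52.9%, and neither pair of groups overlapped as deposited. The knockdown pair overlapped relative to nuclear protein-coding genes (58.0%). Sums over the genes were not tested.

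**Figure D2:**
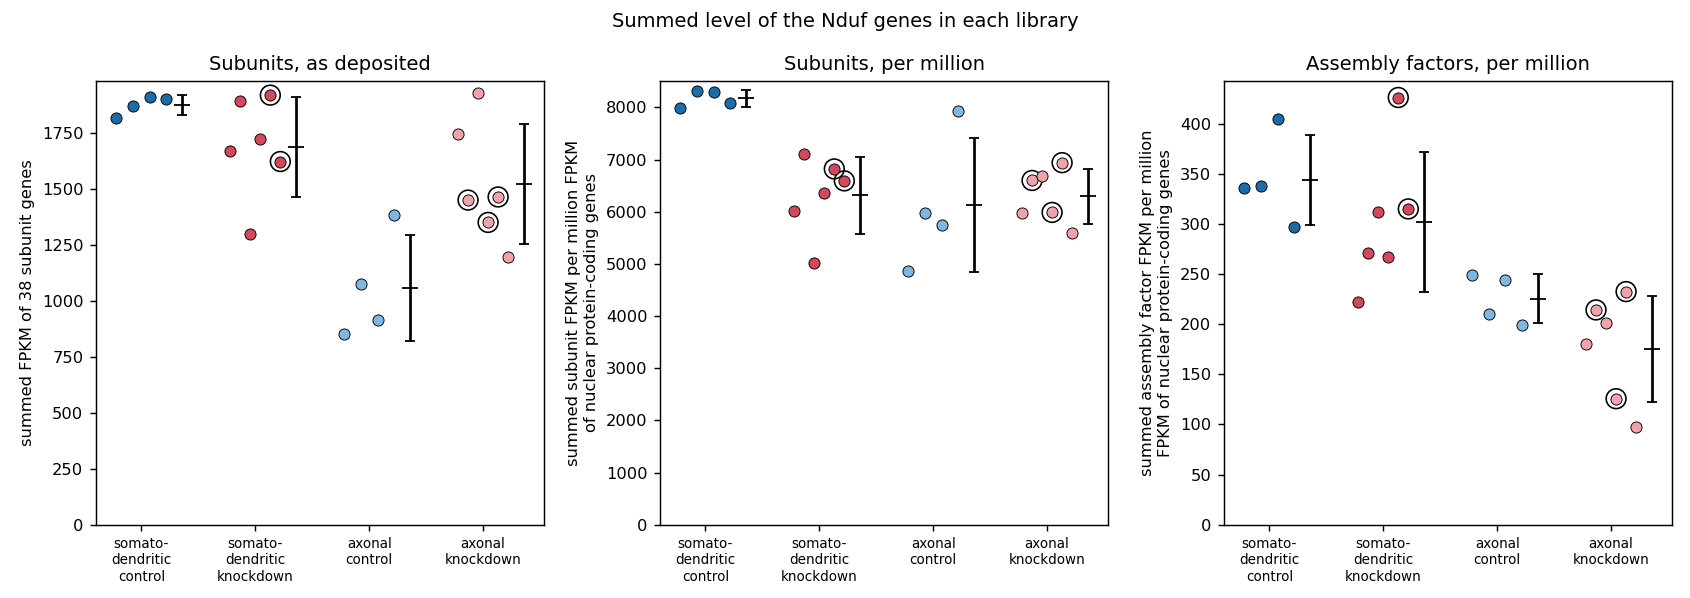
Summed level of the 38 subunit genes in FPKM as deposited (left) and per 1000000 FPKM of nuclear protein-coding genes (middle), and of the 7 assembly factors on the latter scale (right), in each library. Points are libraries in replicate order, ringed points have a relative depth under 0.5, and the bars give the group mean ± SD (n = 4 control, 6 knockdown); on the middle panel the somatodendritic controls lie at 7993 to 8321, above the somatodendritic knockdown libraries at 5018 to 7105.

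In control cultures, 3 subunit transcripts were lower in axons than in the somatodendritic compartment by the test across all genes. They were Ndufa5, an accessory subunit of the quinone-reducing Q module, Ndufb3 and Ndufv3. They were 6.8% of the members tested, against 2.97% of all genes tested. No member was higher in axons at an adjusted p under 0.05, against 3.93% of all genes tested, and 1 was at an unadjusted p under 0.05, against 11.1%. The log2 changes below are from limma on log2(FPKM + 1) after scaling of the libraries, with p-values adjusted by the Benjamini-Hochberg method over the 13760 genes tested. Changes on this scale understate those of genes with low levels.

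Ndufa5 (chr6:24518666-24528013) had 52.2, 28.9, 50.9 and 49.1 FPKM in somatodendritic and 16, 13.1, 14.4 and 12.7 FPKM in axonal controls. Every axonal value was below every somatodendritic value. The log2 change was -1.08 ± 0.26 (SE, n = 4 and 4; adjusted p = 0.0314, limma). Ndufb3 (chr1:58586384-58595964) had 26.8, 26.7, 14.5 and 22.8 FPKM in somatodendritic and 3.02, 6.62, 0 and 3.43 FPKM in axonal controls, and the groups were likewise apart. Its log2 change was -2.35 ± 0.59 (SE; adjusted p = 0.0381, limma). Effective fragments in axonal controls, which are not read counts, were few for these 2 genes. They were 0.88 to 1.53 for Ndufa5 and 0 to 1.99 for Ndufb3. Ndufv3 had more, with 16.1 to 36.3 effective fragments in axonal and 70.1 to 124 in somatodendritic controls. It had 322, 339, 376 and 357 FPKM in somatodendritic and 123, 110, 70.9 and 207 FPKM in axonal controls. The highest axonal value was again below the lowest somatodendritic value, and the log2 change was -1.02 ± 0.27 (SE; adjusted p = 0.0468, limma).

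These 3 calls lie close to the threshold. Leaving out 1 of the 8 libraries at a time kept the direction each time, and moved the adjusted p to between 0.0327 and 0.113 for Ndufa5, 0.0244 and 0.112 for Ndufb3, and 0.00325 and 0.129 for Ndufv3. The number of members lower at an adjusted p under 0.05 was 0 without somatodendritic control replicate 1, 3 or 4, where 0.777%, 0.833% and 1.4% of all genes were lower at that level, and 6 without axonal control replicate 4, where 5.33% of all genes were lower at that level. Other settings kept fewer of these calls. A fit of all 20 libraries kept 0 (adjusted p of 0.168 for Ndufa5, 0.0849 for Ndufb3 and 0.125 for Ndufv3), a pseudocount of 0.1 or no filter on low values kept Ndufa5 only, and a pseudocount of 5 lost Ndufv3 (adjusted p = 0.0511). Axonal control replicate 4 had 233998 FPKM of mitochondrially encoded RNA, against 55277 to 81561 FPKM in the other axonal controls. With FPKM as deposited the number was 8, against 12.4% of all genes at that level. Then 18 members were lower and 0 higher at an unadjusted p under 0.05, against 26% and 5.34% of all genes, and 39 of 44 members were below 0, against 71.1% of all genes. Scaling shifts the median of all genes in this comparison from a log2 change of -0.48 as deposited to -0.06.

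Ndufa8 (chr2:36036326-36049406), a subunit of the ND1 module with paired cysteine motifs, was the remaining gene whose groups did not overlap. It had 38.8, 23.7, 35.4 and 29.8 FPKM in somatodendritic and 0, 17.6, 9.54 and 9.11 FPKM in axonal controls, a log2 change of -1.83 ± 0.77 (SE; unadjusted p = 0.0372, adjusted p = 0.185, limma). The value of 0 in axonal control replicate 1 weighs on it, as the change was -0.87 without that library. Without overlap and lower in axons were thus 4 of 44 genes, or 9.1%, against 8.54% of all genes tested. At an unadjusted p under 0.05, 7 of 44 genes (15.9%) were lower, against 11.8% of all genes tested, and 1 (2.3%) was higher. The others were Ndufc1, Ndufc2 and the core N module subunit Ndufv2 on the lower side, with log2 changes of -1.39, -1.21 and -0.70, and Ndufs7, a core subunit holding an iron-sulphur cluster near the quinone site, on the higher side with 0.78. The change of Ndufv2 was -0.42 without axonal control replicate 1, with an unadjusted p of 0.123. Of the 44 genes, 29 had a change below 0, against 53.0% of all genes tested. The median log2 change was -0.26 for the subunits and -0.52 for the assembly factors, of which 6 of 7 were below 0 and none passed an unadjusted p of 0.05. The assembly factor median was -0.83 without somatodendritic control replicate 2, and the subunit median -0.14 without axonal control replicate 1 and -0.16 without replicate 2.

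Other RNAs moved with this comparison. All 5 markers of dividing cells were higher in axonal than in somatodendritic controls at an unadjusted p under 0.05, 3 of them (Cdk1, Top2a and Mki67) at an adjusted p under 0.05 by limma. Their sum was 101 to 193 FPKM in axonal and 58.6 to 75.2 FPKM in somatodendritic controls. The astrocyte and radial glia list had 6 of 6 genes below 0, with sums of 68.4 to 445 FPKM and 270 to 339 FPKM. The microglia list, with 3 genes lower at an unadjusted and 1 at an adjusted p under 0.05, was at 0 to 4.17 FPKM in axonal and 17.3 to 37.2 FPKM in somatodendritic controls. The fibroblast list, with 1 gene higher, was at 18.8 to 51.9 FPKM and 3.78 to 15.1 FPKM. The oligodendrocyte and Schwann cell list had 4 of 4 genes below 0, 1 of them (Mbp) at an unadjusted p under 0.05, with 2.14 to 26.2 FPKM and 12.04 to 29.01 FPKM. Their part in the differences of the Nduf genes was not tested.

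**Figure D3:**
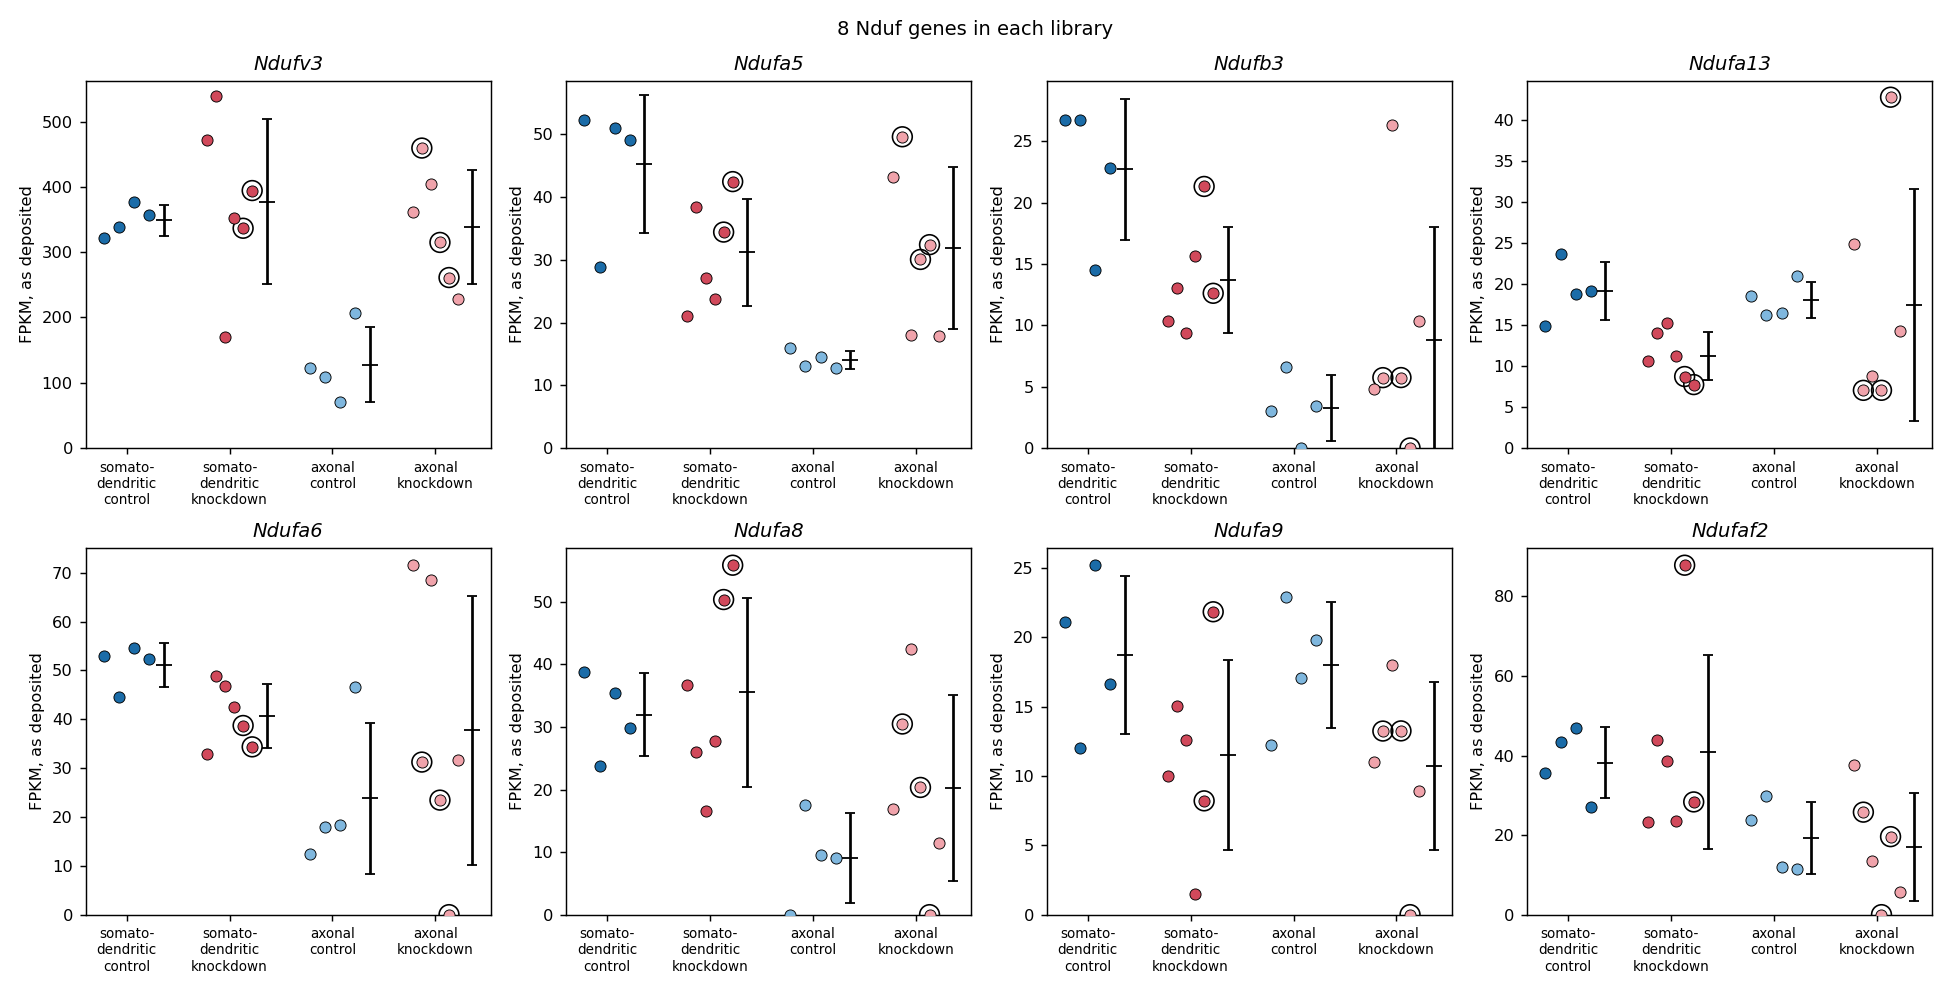
FPKM as deposited of 8 Nduf genes in each library, with points in replicate order, ringed where the relative depth is under 0.5, and bars for the group mean ± SD (n = 4 control, 6 knockdown; bars are cut at 0). Axonal controls of Ndufv3, Ndufa5, Ndufb3 and Ndufa8 lie below all somatodendritic controls, while the axonal knockdown libraries reach the somatodendritic range.

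In knockdown cultures the subunits were divided between higher and lower in axons. No member passed an adjusted p of 0.05 in either direction by limma over 14021 genes tested. At an unadjusted p under 0.05, 3 of 44 genes were lower (8.73% of all genes tested), namely Ndufa10 and Ndufb10 of the membrane arm and the assembly factor Ndufaf2, with log2 changes of -0.99, -1.91 and -1.51. As many were higher (7.86%), namely the N module subunit Ndufs6 and the accessory subunits Ndufa7 and Ndufa3, with 2.05, 0.75 and 1.66. Ndufa7 was the only one of these 6 that kept an unadjusted p under 0.05 when the 5 libraries of low depth were left out, a choice made after the data were seen, with a change of 1.10. Single libraries weighed on 4 of them. The change was -0.92 for Ndufb10 without axonal knockdown replicate 2, where it was listed at 0, -0.82 for Ndufaf2 without axonal knockdown replicate 4, -0.65 for Ndufa10 without axonal knockdown replicate 5 and 0.92 for Ndufa3 without somatodendritic knockdown replicate 6. Ndufaf2 and Ndufa3 then lost an unadjusted p under 0.05. The genes lower in axonal controls did not stand apart here. Ndufv3 spanned 171 to 539 FPKM (median 374) in somatodendritic and 228 to 460 FPKM (median 339) in axonal knockdown libraries, and its log2 change was 0.13 ± 0.28 (SE, n = 6 and 6). Ndufa5 spanned 21.1 to 42.5 FPKM (median 30.8) and 17.8 to 49.6 FPKM (median 31.2), with a log2 change of 0.21 ± 0.36 (SE). Ndufb3 spanned 9.35 to 21.3 FPKM (median 12.8) and 0 to 26.4 FPKM (median 5.73), with -0.92 ± 0.60 (SE). Ndufa8 spanned 16.6 to 55.9 FPKM (median 32.2) and 0 to 42.5 FPKM (median 18.6), with -1.10 ± 0.71 (SE).

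All 7 assembly factors had a change below 0 in this comparison, against 53.2% of all genes tested, with a median of -0.52, and 1 of them, Ndufaf2, passed an unadjusted p of 0.05. The median was -0.82 without axonal knockdown replicate 4 or 6, and 5 of 7 were below 0 without axonal knockdown replicate 4 or somatodendritic knockdown replicate 3. Ndufaf2 had 35.5, 43.4, 47.0 and 27.0 FPKM in somatodendritic and 23.8, 29.7, 12.1 and 11.6 FPKM in axonal controls, with 23.3 to 87.8 FPKM (median 33.4) and 0 to 37.6 FPKM (median 16.5) in the knockdown libraries. Its groups overlapped in both conditions. The median over the subunits was 0.13 against -0.07 for all genes tested, with 21 of 37 subunits above 0, and it turned below 0 with FPKM as deposited (-0.11, with 3 members lower and 1 higher at an unadjusted p under 0.05, against 12.6% and 5.5% of all genes) or quantile normalization (-0.05), and without axonal knockdown replicate 2 (-0.02). As in controls, the dividing cell list had 5 of 5 genes above 0 in axons, 3 of them at an unadjusted p under 0.05, with sums of 0.95 to 64.2 FPKM in somatodendritic and 19.3 to 285 FPKM in axonal knockdown libraries. The fibroblast list had 3 genes higher at an unadjusted p under 0.05, with 0 to 17.4 FPKM and 11.4 to 86.8 FPKM, and Col1a1, a collagen of fibroblasts, passed the adjusted threshold (log2 change 3.41, adjusted p = 0.0185, limma). Malat1, a long noncoding RNA retained in the nucleus, was at 478 to 959 FPKM in somatodendritic and 1041 to 1800 FPKM in axonal knockdown libraries, without overlap (log2 change 1.30, adjusted p = 0.0177, limma). The astrocyte and radial glia list had 6 of 6 genes below 0, with sums of 190 to 334 FPKM and 23.8 to 540 FPKM. The oligodendrocyte and Schwann cell list had 4 of 5 genes below 0, with Sox10 lower without overlap (log2 change -1.66, adjusted p = 0.0967, limma) and sums of 15.6 to 60.3 FPKM and 8.09 to 27.95 FPKM. Isl1, the motoneuron marker that passed the filter on low values, had a log2 change of -1.33 (adjusted p = 0.242, limma), and the motoneuron list was at 1.33 to 8.03 FPKM and 0 to 6.72 FPKM. Their part in the values of the Nduf genes was not tested.

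**Figure D4:**
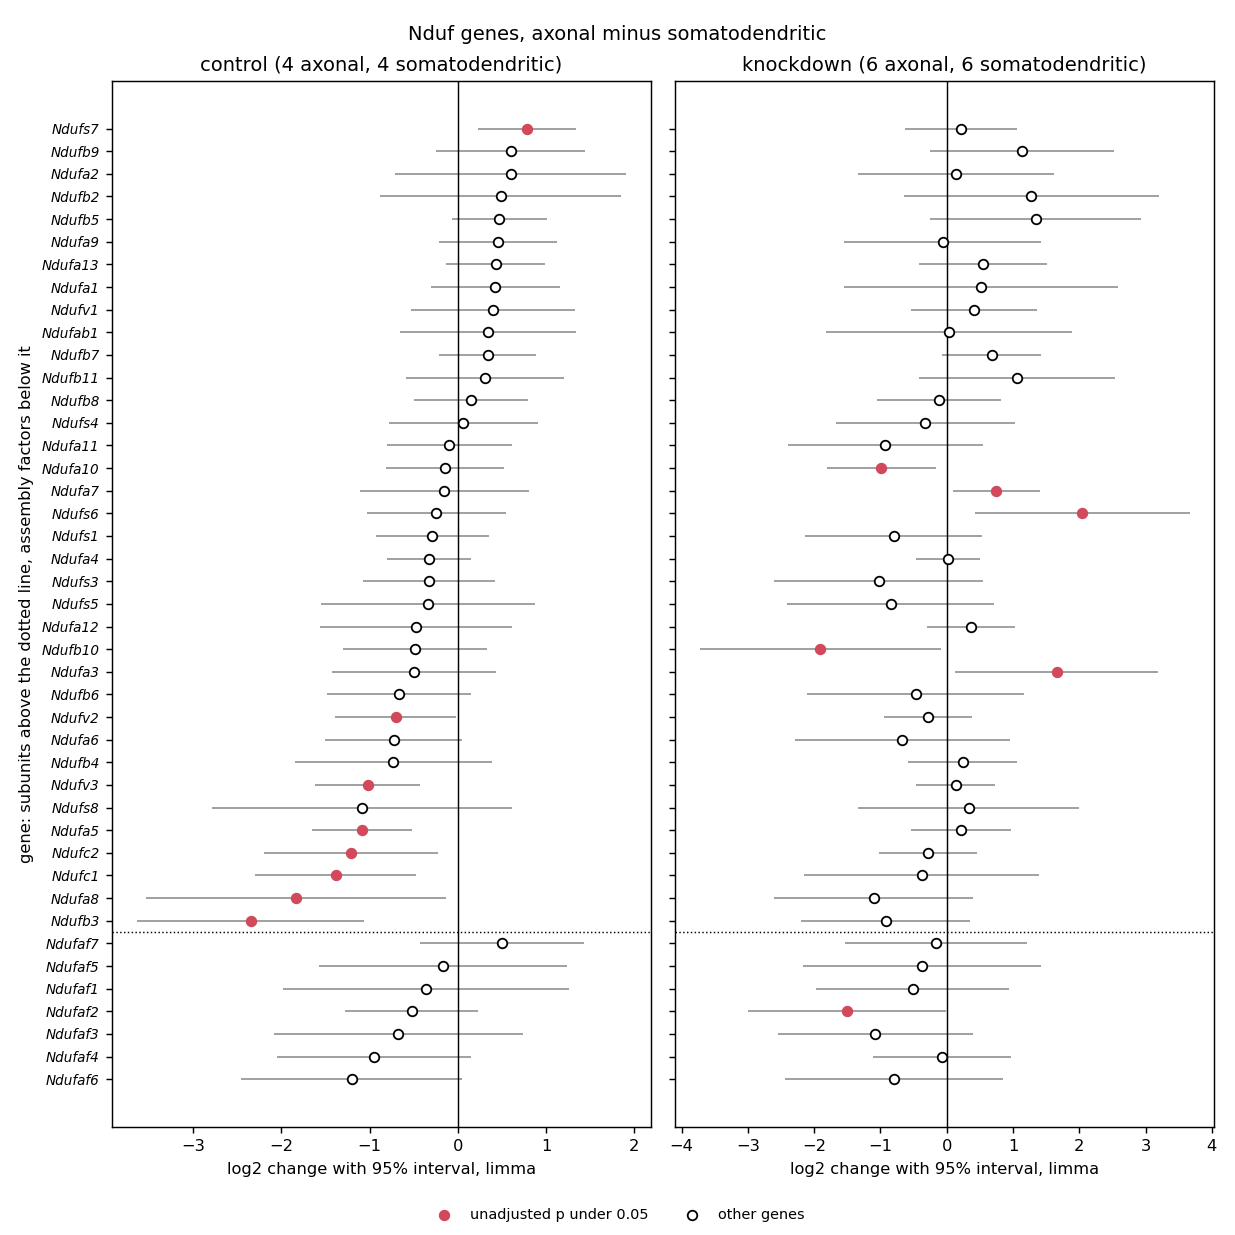
Log2 change between axonal and somatodendritic libraries for 43 of the 44 Nduf genes tested, with 95% intervals from limma, in control (left, n = 4 and 4) and knockdown cultures (right, n = 6 and 6). Genes are sorted by the change in control within subunits and assembly factors, filled points have an unadjusted p under 0.05, and the 2 panels have different x ranges; in control 7 filled points lie below 0 and 1 above it, in knockdown 3 on either side.

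In the somatodendritic compartment no Nduf gene passed an adjusted p of 0.05 between knockdown and control, while most had an estimated change below 0. Of 44 genes, 41 had a log2 change below 0, against 59.3% of the 13762 genes tested, and the median was -0.54 for the subunits, -0.45 for the assembly factors and -0.13 for all genes. Without somatodendritic knockdown replicate 6 the assembly factor median was -0.27. By limma, 104 genes in all were lower and 30 higher at an adjusted p under 0.05. At an unadjusted p under 0.05, 12 of 44 genes were lower (27.3%), against 9.22% of all genes tested, and 1 was higher, Ndufb10, a membrane arm subunit, with 81.9 ± 19.4 FPKM in control and 134 ± 25.0 FPKM in knockdown (SD, n = 4 and 6) against 4.59% of all genes tested.

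The gene with the smallest p was Ndufa13 (chr8:69894180-69902558), an ND1 module subunit also known as GRIM-19. It had 14.9, 23.7, 18.9 and 19.1 FPKM in control and 7.74 to 15.3 FPKM (median 10.9) in knockdown libraries, which overlapped as deposited and did not overlap after scaling. The log2 change was -0.93 ± 0.26 (SE, n = 4 and 6; unadjusted p = 0.00325, adjusted p = 0.114, limma). Of its exonic bases, 30% are shared with Tssk6 on the opposite strand. Ndufa6 (chr15:82350140-82354322), an accessory subunit next to the Q module, had 53.0, 44.5, 54.5 and 52.3 FPKM in control and 32.9 to 48.9 FPKM (median 40.7) in knockdown libraries. Its groups were also apart only after scaling, with a log2 change of -0.54 ± 0.17 (SE; unadjusted p = 0.00730, adjusted p = 0.157, limma). Without overlap and lower were thus 2 of 44 genes (4.5%), against 3.6% of all genes tested. Ndufb3, second in order of p, had 26.8, 26.7, 14.5 and 22.8 FPKM in control and 9.35 to 21.3 FPKM (median 12.8) in knockdown, with overlap and a log2 change of -0.90 ± 0.27 (SE; adjusted p = 0.143, limma). Ndufa5 had 52.2, 28.9, 50.9 and 49.1 FPKM in control and 21.1 to 42.5 FPKM (median 30.8) in knockdown, with overlap through control replicate 2 and a log2 change of -0.74 ± 0.26 (SE; adjusted p = 0.213, limma).

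The other genes lower at an unadjusted p under 0.05 included Ndufb2, Ndufs6, Ndufc1, Ndufv2, Ndufa4, Ndufb5 and Ndufa1, with log2 changes from -2.47 for Ndufs6 to -0.41 for Ndufa4. Ndufv2 is a core subunit with an iron-sulphur cluster of the N module. The largest changes belonged to genes listed at 0 in some knockdown libraries. Ndufs6 had a mean of 15.9 ± 2.58 FPKM in control and 5.64 ± 7.04 FPKM in knockdown, Ndufc1 50.6 ± 16.7 and 17.9 ± 12.3 FPKM, and Ndufb2 17.7 ± 14.4 and 3.53 ± 3.97 FPKM (SD, n = 4 and 6). Without somatodendritic knockdown replicates 5 and 6, the libraries of low depth, 16 genes were lower and 0 higher at an unadjusted p under 0.05, against 9.38% and 6.52% of all genes, 41 of 44 were below 0 against 52.4% of all genes, and the subunit median was -0.52. Ndufb5 then passed the adjusted threshold (log2 change -1.28, adjusted p = 0.0402), against -1.68 and an adjusted p of 0.310 with all libraries and -1.04 without replicate 6 alone. With FPKM as deposited 6 genes were lower, against 5.44% of all genes, 37 of 44 were below 0 against 47.3% of all genes, and the subunit median was -0.33, while the median of all genes moved from -0.13 to 0.04. Leaving out 1 library at a time left 7 to 16 genes lower, against 7.02% to 9.5% of all genes, and 7 genes, Ndufa13, Ndufa6, Ndufa5, Ndufb2, Ndufb3, Ndufc1 and Ndufs6, kept an unadjusted p under 0.05 each time.

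Glial RNAs moved in the same comparison. Fabp7, a radial glia marker, was lower in somatodendritic knockdown (log2 change -1.14, unadjusted p = 0.000809) and Gfap, an astrocyte marker, higher (0.92, unadjusted p = 0.00547), with the whole list of 6 at 270 to 339 FPKM in control and 190 to 334 FPKM in knockdown. The dividing cell list had 5 of 5 genes below 0, with 58.6 to 75.2 FPKM and 0.95 to 64.2 FPKM. The microglia list, with 2 genes lower at an unadjusted p under 0.05, was at 17.3 to 37.2 FPKM and 2.74 to 25.9 FPKM. Their part in the lower Nduf values was not tested.

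**Figure D5:**
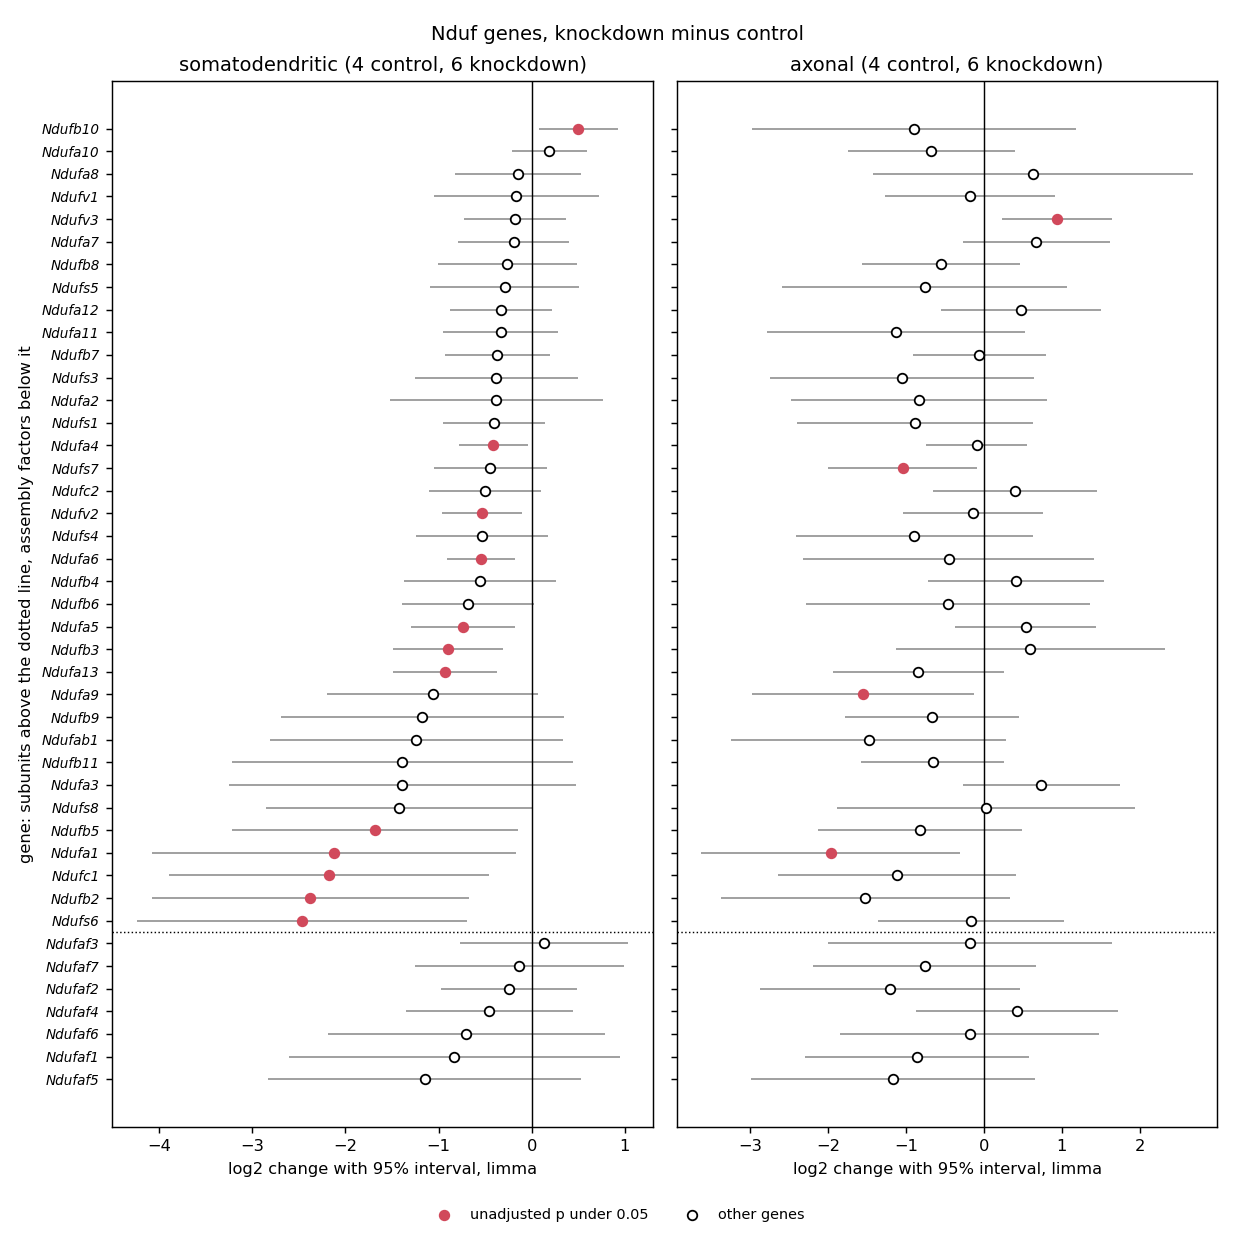
Log2 change between Tdp-43 knockdown and control libraries for 43 of the 44 Nduf genes tested, with 95% intervals from limma, in the somatodendritic (left) and axonal compartment (right, n = 4 control and 6 knockdown in each). Genes are sorted by the somatodendritic change within subunits and assembly factors and filled points have an unadjusted p under 0.05; nearly all points lie below 0 on the left and most on the right, where the intervals are generally wider.

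In axons no Nduf gene passed an adjusted p of 0.05 between knockdown and control by limma over 13958 genes tested. At an unadjusted p under 0.05, 3 of 44 genes were lower (6.8%), against 6.46% of all genes tested, and 1 was higher, Ndufv3, against 2.14% of all genes tested. Ndufv3 had 123, 110, 70.9 and 207 FPKM in axonal control and 228 to 460 FPKM (median 339) in axonal knockdown libraries, so that every knockdown library was above every control as deposited. The groups overlapped after scaling, and the log2 change was 0.94 ± 0.33 (SE, n = 4 and 6; unadjusted p = 0.0118, adjusted p = 0.387, limma). It was 0.83 without the 3 axonal knockdown libraries of low depth.

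The lower genes were Ndufa1, an ND1 module subunit encoded on the X chromosome, Ndufa9, a Q module-adjacent subunit that binds NADPH, and Ndufs7, with log2 changes of -1.96, -1.55 and -1.04. Ndufa9 (chr6:126821721-126849136) had 12.2, 22.9, 17.1 and 19.8 FPKM in axonal control and 0 to 18.0 FPKM (median 12.1) in axonal knockdown libraries, overlapping as deposited and apart after scaling (log2 change -1.55 ± 0.67, SE; unadjusted p = 0.0350, adjusted p = 0.537, limma). The change was -0.95 without axonal knockdown replicate 5, where it was listed at 0, and the unadjusted p was over 0.05 without axonal control replicate 2, 3 or 4, at most 0.0839. Its somatodendritic values were 21.1, 12, 25.2 and 16.6 FPKM in control and 1.5 to 21.8 FPKM (median 11.3) in knockdown. It was the only member without overlap and lower (2.3% of 44), against 2.02% of all genes tested. Ndufa13 had 18.5, 16.2, 16.5 and 21 FPKM in axonal control and 7.04 to 42.8 FPKM (median 11.5) in axonal knockdown, and Ndufa6 12.3, 18.0, 18.3 and 46.7 FPKM and 0 to 71.5 FPKM (median 31.4), with overlap in both.

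Of the 44 genes, 33 had an axonal change below 0, against 58.7% of all genes tested, with medians of -0.55 for the subunits, -0.76 for the assembly factors and -0.17 for all genes. The assembly factor median was -0.49 without axonal knockdown replicate 4 and -0.50 without axonal control replicate 4, and the subunit median -0.27 without axonal knockdown replicate 5. These values differed with the scaling and with the libraries used. With FPKM as deposited 23 of 44 were below 0, against 38.1% of all genes. At an unadjusted p under 0.05, 0 were then lower and 4 higher (Ndufv3, Ndufa3, Ndufa7 and Ndufa5), against 2.67% and 7.16% of all genes, and the subunit median was -0.04 against 0.23 for all genes. Without axonal knockdown replicates 2, 4 and 5, which are of low depth and are 3 of the 4 with 264260 to 367392 FPKM of mitochondrially encoded RNA, 26 of 44 were below 0, against 46.5% of all genes, 7 were lower and 1 higher, against 4.2% and 3.53%, and the subunit median was -0.13 against 0.06. The library labelled axonal knockdown replicate 1 had 33.2 FPKM of Tardbp, the highest of its group. Without it, 32 of 44 were below 0, against 59.4% of all genes. At an unadjusted p under 0.05, 2 were then lower and 1 higher, against 7.17% and 2.26% of all genes. The subunit median was -0.68. The nuclear RNA Malat1 was at 312 to 489 FPKM in axonal control and 1041 to 1800 FPKM in axonal knockdown libraries (log2 change 1.33, adjusted p = 0.0739). The dividing cell list had 5 of 5 genes below 0, 1 of them at an unadjusted p under 0.05, with sums of 101 to 193 FPKM and 19.3 to 285 FPKM. Their part in the axonal values was not tested.

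Whether the knockdown difference was itself unlike between compartments was tested as the interaction of condition and compartment over all 20 libraries. No member passed an adjusted p of 0.05 by limma over 14062 genes tested. At an unadjusted p under 0.05, 4 of 44 genes had a higher change in axons than in the somatodendritic compartment (9.1%), against 2.75% of all genes tested, and 0 had a lower one, against 2.86%. They were Ndufv3 with a difference of log2 changes of 1.10 ± 0.41 (SE; unadjusted p = 0.0136, adjusted p = 0.83), Ndufa5 with 1.25 ± 0.49 (SE; unadjusted p = 0.0176, adjusted p = 0.839), Ndufs6 with 2.18 ± 0.99 (SE) and Ndufa3 with 2.08 ± 1.0 (SE). Ndufv3 and Ndufa5 kept an unadjusted p under 0.05 whichever of the 20 libraries was left out. Without all 5 libraries of low depth Ndufa5 kept it (1.02, unadjusted p = 0.0381) and Ndufv3 did not (0.98, unadjusted p = 0.0517). This test shares the axonal control libraries with the comparison of compartments in control cultures, in which both genes were lower, and is not independent of it. The median over the subunits was 0.30, against -0.04 for all genes. Other RNAs had a higher change in axons in the same test. Malat1 had a difference of 1.59 (adjusted p = 0.0687, limma), and 1 gene of the nuclear RNA list passed the adjusted threshold with FPKM as deposited. The microglia list had 4 of 4 genes above 0 with a median of 1.66, 1 of them, C1qa, at an unadjusted p under 0.05, and its sums were 17.3 to 37.2 FPKM in somatodendritic control, 2.74 to 25.9 FPKM in somatodendritic knockdown, 0 to 4.17 FPKM in axonal control and 0 to 50.7 FPKM in axonal knockdown. The mitochondrially encoded subunits had 6 of 7 genes above 0 with a median of 0.65. Their part in the differences of the Nduf genes was not tested.

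Grouped by module, no gene passed an adjusted p of 0.05 in somatodendritic knockdown, and the counts below are signs of the estimated changes, which were below 0 for 59.3% of all genes tested. All 8 N module genes, 5 of 5 Q module genes, 4 of 4 of the ND1 module and 6 of 6 of the ND5 module had a change below 0, of which 2, 2, 2 and 2 passed an unadjusted p of 0.05, as did 9.22% of all genes on the lower side. In the ND2 and ND4 modules 4 of 5 genes each were below 0, with Ndufa10 and Ndufb10 as the exceptions. With FPKM as deposited the medians of all these modules stayed below 0, with 6 of 8 N module and 3 of 4 ND1 module genes below 0. The 7 nuclear core subunits were all below 0 (6 of 7 as deposited), with a median of -0.44, and 2 of them, Ndufv2 among these, had an unadjusted p under 0.05. Between compartments, all 5 ND2 module genes (Ndufa10, Ndufa11, Ndufc1, Ndufc2 and Ndufs5) were below 0 in axons in both conditions. Their medians were -0.34 in control and -0.85 in knockdown, and 53.0% and 53.2% of all genes were below 0. The ND2 module count was the same with FPKM as deposited, where 71.1% and 61.9% of all genes were below 0. Of 6 ND5 module genes 5 were above 0 in axonal controls after scaling, with Ndufb3 as the exception, and 4 of 6 were below 0 as deposited. No difference between modules was tested.

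The mitochondrially encoded subunits, mt-Nd1 to mt-Nd6 with mt-Nd4l, form the proton-pumping membrane arm together with nuclear subunits. Their changes between compartments were opposite in sign to those of most nuclear members in control cultures. All 7 were above 0 in axonal controls with a median of 0.66. Of these, 3 (mt-Nd4, mt-Nd4l and mt-Nd6) had an unadjusted p under 0.05, against 11.1% of all genes on the higher side. The adjusted p of mt-Nd4l was 0.0459 by limma, and 3.93% of all genes were higher at an adjusted p under 0.05. As deposited 6 of 7 were above 0, with a median of 0.13. In knockdown all 7 were above 0 with a median of 1.53 and at an unadjusted p under 0.05, against 7.86% of all genes on the higher side. As deposited 6 of 7 passed (median 1.29), against 5.5% of all genes, and with quantile normalization 5 of 7 (median 0.97), against 7.27%. As deposited, they summed to 4885 to 18816 FPKM in axonal control and 4915 to 37021 FPKM in axonal knockdown. Somatodendritic sums were 6406 to 7982 FPKM in control and 5180 to 10807 FPKM in knockdown. Axonal control replicate 4 had 18816 FPKM and the other axonal controls 4885 to 7250 FPKM. Axonal knockdown replicates 2, 4, 5 and 6 had 23289 to 37021 FPKM, and replicates 1 and 3 had 6892 and 4915 FPKM. Replicates 2, 4 and 5 are of low depth. The weight of single libraries on the log2 changes was not tested. The axonal knockdown mean was 231% of control, with overlapping groups. The median log2 change between these groups was 1.05 as deposited, 0.53 after scaling and 0.31 with quantile normalization, where 3 of 7 were below 0. At an unadjusted p under 0.05, 2, 0 and 1 of 7 were higher in that order, against 7.16%, 2.14% and 2.84% of all genes. In the somatodendritic compartment all 7 were below 0 in knockdown after scaling, against 59.3% of all genes. Of these, 3 (mt-Nd4, mt-Nd4l and mt-Nd6) had an unadjusted p under 0.05, against 9.22% of all genes on the lower side. The change of mt-Nd4l was -1.27 (adjusted p = 0.0523, limma). As deposited 4 of 7 were below 0, against 47.3% of all genes, and 2 were lower at an unadjusted p under 0.05, against 5.44%. With quantile normalization 4 were lower and 1 higher at that level, against 7.72% and 6.39%.

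Complex I assembly factors without an Nduf symbol were 10 genes, of which 8 were below 0 in somatodendritic knockdown. Acad9, which belongs to the early membrane arm assembly complex, and Tmem126b of the same complex passed an unadjusted p of 0.05, with log2 changes of -0.69 and -1.41, against 9.22% of all genes on the lower side. With FPKM as deposited and with quantile normalization 7 of 10 were below 0 and 0 passed. In axonal knockdown 8 of 10 were below 0 (4 of 10 as deposited) and 0 passed. Of 6 transcriptional regulators of respiratory genes, 5 were below 0 in somatodendritic knockdown and 3 in axonal knockdown, and 0 passed an unadjusted p of 0.05 in either. Nrf1, which encodes NRF-1, had changes of 0.27 and -0.56, and Ppargc1a, a coactivator of mitochondrial biogenesis, -0.27 and 0.31. Gabpa, the DNA-binding subunit of GABP, was higher in axons than in cell bodies of knockdown cultures at an unadjusted p of 0.0102 (log2 change 1.58, adjusted p = 0.154, limma).

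For several members the level is uncertain because other genes share their sequence. In GENCODE M21, 17 of the 45 genes overlap exons of a gene on the opposite strand and 3 of one on the same strand, and 7 share more than 10% of their exonic bases. Of the 50-base stretches of their transcripts, 10 genes have more than 10% in transcripts of other genes, often processed pseudogenes. Among the genes given in full above, Ndufaf2 and Ndufa13 are affected through the overlaps named with them, Ndufab1 shares 9.3% of its stretches, mainly with the processed pseudogenes Gm4459 and Ndufab1-ps, Ndufb3 6.7% with the processed pseudogene Gm45930, Ndufa9 2.5% and Ndufaf7 2.1% with several genes, and Ndufa5, Ndufa6 and Ndufa8 share none.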

How the data were processed

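Total RNA of the axonal and the somatodendritic compartment was reverse transcribed, amplified as a whole transcriptome by PCR and sequenced. The authors deposited FPKM values per gene and library, computed with Cufflinks 2.2.1 on GRCm38 after quality control with FastQC 0.10.1 (submitters' processing notes). No molecular identifiers are described, and effective fragment numbers do not cover the error of amplification. No raw counts were used. Per the study's methods, the control data had been described earlier and both conditions were processed in parallel.

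Each fit tested genes whose FPKM averaged 1 or more in its libraries. Libraries were scaled by median-of-ratios factors from genes that reached 1 FPKM everywhere, log2(FPKM + 1) was taken, and limma 3.58.1 (R 4.3.3; trend, Benjamini-Hochberg over all genes tested) compared knockdown with control within each compartment, axonal with somatodendritic within each condition, and the interaction. Values up to 0.001 FPKM were read as 0. Fragments were computed as the squared ratio of FPKM to the standard deviation given by its confidence interval, and relative depth over 680 genes with more than 3 fragments in every library. Python 3.11.15, numpy 2.4.6, pandas 2.3.3 and matplotlib 3.10.9 were used for the rest. The procedure was also run on simulated data in which only genes of higher level were changed, so that run does not cover genes at low levels. No 2 libraries shared more than 1 identical value among 4986 genes above 0 in all.

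Values in every control library, with the range and median of the 6 knockdown libraries, are given for members with an adjusted p under 0.05, members with an unadjusted p under 0.05 whose groups do not overlap, and the highest and lowest of each compartment among subunits and among assembly factors. The members and gene lists were chosen with earlier results of these data known. Other scalings, pseudocounts, filters, sample weights, a replicate block and leaving out libraries were tried as alternatives. The individual values of 1 member are not reported here.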

Additional observations from a re-analysis of the deposited data

Results flagged for a closer look

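In groups of 4 or 6 libraries, 4 of 56 sets of values held a library far from the rest of its group, and chance alone gives about 1 in 20. Somatodendritic knockdown replicate 5 had 119.8 FPKM for the summed assembly factors, against 80.8 in the next library, and the same library had 87.8 FPKM of Ndufaf2, against 44.0 in the next. Its relative depth was 0.256, and Ndufaf2 overlaps a gene on the opposite strand. Somatodendritic control replicate 2 had 28.9 FPKM of Ndufa5, against 49.1 in the next lowest control. Axonal control replicate 3 had 4.46 FPKM of Ndufaf7, against 2.27 in the next.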

How the results depend on the processing

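The median Nduf gene had 0.25 to 11.9 effective fragments per library, so single values of most members carry a wide error. No member reached an adjusted p under 0.05 in 4 of the 5 comparisons with all libraries, and the part of depth in this was not tested. Values below are numbers of members at an unadjusted p under 0.05 and median log2 changes of the subunits, and percentages are the shares of all genes tested at the same level. The causes of the shifts were not tested.

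With FPKM as deposited, somatodendritic knockdown had 6 lower, axonal knockdown 0 lower and 4 higher (median -0.043), axons of controls 18 lower and 0 higher with 8 lower after adjustment (median -0.770), axons of knockdown cultures 1 higher (median -0.114), and the interaction a median of 0.628. Quantile normalization gave -0.049 in axons of knockdown cultures. A pseudocount of 0.1 gave 1 lower in axonal knockdown (median -0.705; 5.14% of all genes), 1 lower after adjustment in axons of controls (2.59%) and 1 lower in axons of knockdown cultures (7.71%), and a pseudocount of 5 gave a median of -0.421 in axonal knockdown. No filter on low values gave 3 higher (8.14%) and 1 lower after adjustment (1.96%) in axons of controls, and 1 lower in axons of knockdown cultures (6.8%). Array weights gave 7 lower in axonal knockdown (median -0.354; 6.99% of all genes) and 1 lower in the interaction (3.37%). One fit of all 20 libraries gave 0 higher in somatodendritic knockdown (1.22%), 4 lower (7.31%) and 0 higher (8.09%) with 0 lower after adjustment (0.661%) in axons of controls, and 5 higher in axons of knockdown cultures (9.52%). The next 2 alternatives were chosen after seeing the data. Without the libraries of a relative depth under 0.5, somatodendritic knockdown had 0 higher, axonal knockdown 7 lower (median -0.132) and the interaction 2 lower (2.77%). This gave no value for axons of controls, which hold no such library. Ratios of group means gave -0.345 in axonal knockdown. The assembly factor median of the interaction, -0.19, turned to 0.106 as deposited, 0.057 with a filter at 5 FPKM, 0.224 without shallow libraries, and 0.003 and 0.140 without axonal knockdown replicate 2 and somatodendritic knockdown replicate 4.

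Same-numbered libraries did not deviate together (correlations -0.036 to 0.070 over 14062 genes), so the numbers do not pair the samples. A replicate block gave 0 higher in somatodendritic knockdown (5.86% of all genes), 2 higher in axonal knockdown (median -0.253; 3.42%) and 1 lower after adjustment in axons of controls (0.887%).

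Leaving out 1 library at a time gave 7 to 16 lower, 0 to 1 higher and medians of -0.611 to -0.483 in somatodendritic knockdown, and 0 to 5 lower, 0 to 2 higher and -0.682 to -0.270 in axonal knockdown. It gave 5 to 13 lower, 1 to 2 higher, 0 to 6 lower after adjustment and -0.288 to -0.142 in axons of controls, and 1 to 4 lower, 1 to 4 higher and -0.018 to 0.277 in axons of knockdown cultures. The interaction had 0 to 1 lower, 2 to 5 higher and medians of 0.159 to 0.400, with an assembly factor median of -0.787 to 0.140. The shares of all genes lower and higher were then 7.02% to 9.5% and 3.6% to 6.09% in somatodendritic knockdown, 4.66% to 7.17% and 1.61% to 3.65% in axonal knockdown, 8.93% to 14% and 8.79% to 13.3% in axons of controls (0.777% to 5.33% lower after adjustment), 7.05% to 10.3% and 6.32% to 9.56% in axons of knockdown cultures, and 2.27% to 3.87% and 2.04% to 3.64% in the interaction.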
